A study of Mus musculus with 7 samples.

Results

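The nuclear genome encodes a family of small membrane proteins, the Slc25 carriers, which move metabolites across the inner mitochondrial membrane. They were followed here with their relatives, the uncoupling proteins, in soleus muscle of Yy1 knockout mice. A gene belonged to the set when its probe sets carried exactly 1 platform symbol and that symbol began with Slc25a or was Ucp1, Ucp2 or Ucp3. By that rule 35 of 12393 genes on the arrays were members, all but Ucp1 and Ucp3 being Slc25a genes, and 68 probe sets covered them. Where a gene had several, its brightest one, by mean log2 level, was used. Of 51 reference genes with such a name, 16 had no entry in the gene table, among them Ucp2, Slc25a1 and Slc25a12, and were not analysed here.

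Total RNA of the soleus, a slow postural muscle of the hindlimb, was hybridised to 7 one-colour arrays. 3 came from wild type mice and 4 from mice whose label reads Yin Yang 1 knockout, the gene of a zinc finger transcription factor. Both genotypes were 6 months old and of mixed C57Bl/6 and 129 background, with no treatment given. The labels do not name the deleted exons, the cells in which Yy1 was removed or whether each array came from its own animal, so a p-value here reflects array-to-array spread that could be technical.

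Most carriers work by exchange, letting one compound in while another leaves, and the energy metabolism of a muscle fibre depends on several of them at once. Oxidative fibres draw fatty acids into the matrix as acylcarnitines, feed in reducing equivalents through the malate-aspartate shuttle, and trade ADP and phosphate for ATP. Uncoupling proteins let protons return to the matrix without ATP synthesis. Ucp1 is the brown fat form, and Ucp3 is the form typical of skeletal muscle, where it is known to follow fatty acid use.

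Array medians lay between 139.1 and 143.2 intensity units, and all levels below are log2(value + 1). The targeted gene, Yy1, measured 8.39, 8.24, 8.48 and 8.29 in knockout against 9.32, 9.20 and 9.62 in wild type (log2 fold change -1.02, SE 0.10, limma adjusted p = 0.000213). Fibre markers were bright on every array, and the summed intensity of 10 of them was 373053 to 389981 units in knockout and 379847 to 394985 in wild type. Those overlapping sums hold changes in both directions, since 4 of the 10 markers rose and 4 fell. Tnni1 of slow fibres rose by 0.40, while Myh2 of fast oxidative fibres (-0.46) and myoglobin, Mb (-0.41), fell. Slow fibre genes did not all rise: the light chain gene Myl3 fell (-0.26), and Myl2 measured 0.04 and did not pass. The part of these fibre markers in the carrier changes was not tested. A change in bulk RNA cannot tell fewer cells of a type from less RNA per cell.

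Carrier transcripts were more often lower than higher in the knockout soleus. Past the threshold of 0.05 on limma's adjusted p, 14 of the 35 genes (40%) were lower and 3 (8.57%) higher, 17 in all, while 18 did not pass. Over all 12393 genes 16% were lower and 17.0% higher, 32.9% in all. Every knockout array lay below every wild type array in 15 carriers and above in 4, beside 19.1% and 20.5% of all genes. The 14 lower carriers had a median log2 fold change of -0.63, from -1.79 to -0.20. Groups overlapped in none of them, and in 61 of the 1979 lower genes of the whole table. The median over the 35 members was -0.09, beside 0.01 over all genes. The mean signal lay above the median gene of 7.66 in 23 of the 35 members, in 12 of the 14 lower ones and in 9 of the 18 not called. Calls were more frequent among bright genes. In a fit of genes above the median level, 12 of 23 carriers were lower and 2 higher, beside 3228 of 6196 genes called in either direction. The share of these brighter genes that was lower was not counted, and the 16% over all genes does not stand in for it.

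**Figure D1:**
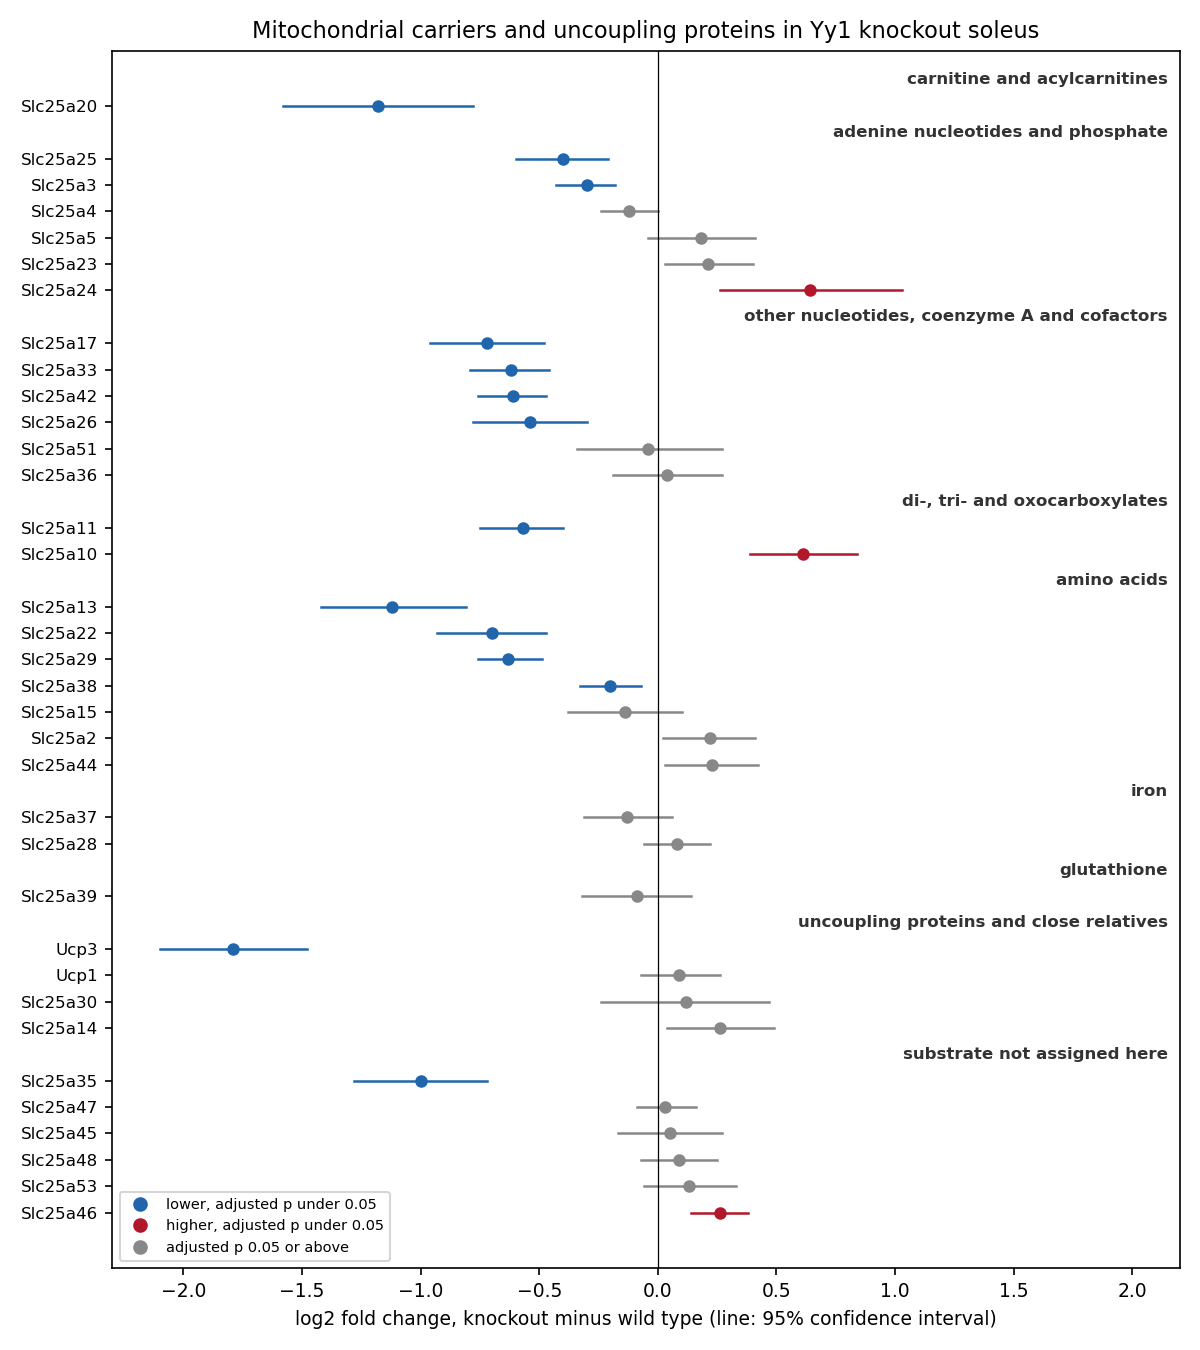
Log2 fold change (knockout minus wild type, x axis) of each of the 35 genes, grouped by the compound carried; points are the estimates and lines the 95% confidence intervals. Ucp3 lies farthest to the left at -1.79, 14 genes are lower and 3 higher past the threshold, and the iron and glutathione carriers sit close to 0.

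Since Yy1 encodes a DNA-binding factor, the promoter windows of the carriers were searched for its core motif. RefSeq windows on GRCm38.p6, from 250 bases before to 50 bases after a transcript start, were found for 28 of the 35 members. Slc25a2, Slc25a26, Slc25a35, Slc25a37, Slc25a44, Slc25a46 and Slc25a51 had no entry. The core was taken as CCATNTT, or AANATGG on the other strand. It occurred in windows of 3 of the 28 members, and 3 of their 37 windows (8.11%) held it, beside 16.1% of all 32851 windows of the same length. Of 12 lower members with a window, Slc25a3 and Slc25a25 held it. The third was Slc25a14.

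A half-site of nuclear receptors, AGGTCA or TGACCT, to which receptors of lipid metabolism bind, was searched for in the same windows. It occurred in 5 of the 37 (13.5%), beside 16.3% of all windows, and no match of one motif overlapped the other. Slc25a39, Slc25a45, Slc25a47 and Ucp1 held it without being called. Of 12 lower members with a window, only Ucp3 held it, at 149 and at 44 bases before the start. That was 1 of the 16 windows of lower members (6.25%), a smaller share than over all windows. The sequences below show the 3 members with the largest falls and the matches of Slc25a25 and Slc25a3, on the strand of the gene, with capitals marking the matched letters of either motif. The 4 long ones end at the base before a RefSeq start, and Slc25a3 is shown as the last 30 bases of its window.
Ucp3: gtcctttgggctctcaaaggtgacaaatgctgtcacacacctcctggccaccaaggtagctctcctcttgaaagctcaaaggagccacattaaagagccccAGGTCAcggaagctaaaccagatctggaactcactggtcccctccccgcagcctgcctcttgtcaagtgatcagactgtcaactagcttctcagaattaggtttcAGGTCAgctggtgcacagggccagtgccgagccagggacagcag
Slc25a20: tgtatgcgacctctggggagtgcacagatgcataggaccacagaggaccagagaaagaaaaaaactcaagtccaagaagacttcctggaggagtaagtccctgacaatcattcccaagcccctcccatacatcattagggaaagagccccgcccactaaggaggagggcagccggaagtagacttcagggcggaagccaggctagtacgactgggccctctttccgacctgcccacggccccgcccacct
Slc25a13: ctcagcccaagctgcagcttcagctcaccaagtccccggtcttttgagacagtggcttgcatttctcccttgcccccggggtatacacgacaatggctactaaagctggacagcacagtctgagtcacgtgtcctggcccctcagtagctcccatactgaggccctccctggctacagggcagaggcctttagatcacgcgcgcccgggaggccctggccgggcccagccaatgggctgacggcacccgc
Slc25a25: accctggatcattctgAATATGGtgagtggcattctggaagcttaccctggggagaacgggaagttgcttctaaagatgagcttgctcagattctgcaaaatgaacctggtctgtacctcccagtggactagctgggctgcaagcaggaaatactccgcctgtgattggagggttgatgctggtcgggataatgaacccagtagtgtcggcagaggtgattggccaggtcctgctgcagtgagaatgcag
Slc25a3: cccagcgagcggttgggtgttcgCCATCTT
They lie at chr7:100472741-100472990 (Ucp3, plus strand), chr9:108661886-108662135 (Slc25a20, plus), chr6:6217174-6217423 (Slc25a13, minus), chr2:32431152-32431401 (Slc25a25, minus, 1 of its 3 starts) and chr10:91123918-91123947 (Slc25a3, minus). The Slc25a20 and Slc25a13 windows held neither motif. A match of letters is a description of the sequence, and binding was not measured.

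Ucp3 fell most. Its values were 9.96, 10.10 and 9.93 in wild type and 8.59, 7.95, 8.11 and 8.19 in knockout, so the groups stood more than 1 log2 unit apart. That left 29.0% of the wild type signal (log2 fold change -1.79, SE 0.14, limma adjusted p = 7.02e-05). A dimmer Ucp3 probe set was also lower in all 4 knockout arrays, but by less, at -0.70 (SE 0.09). The knockout array nearest to wild type was array 1, at 8.59. It was the highest of the 4 knockout arrays in 8 of the 14 lower carriers (57.1%) and in 52.2% of the 1979 lower genes of the whole table.

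The other uncoupling protein measured, Ucp1, stayed at the bottom of the scale, between 4.51 and 4.84 on all 7 arrays, where the lowest value of any probe set was 3.63. An identical value was recorded on 5 of the arrays, and the fit gave 0.09 (95% confidence interval -0.07 to 0.26). No detection call was used. Among genes of brown adipocytes, the lipid droplet gene Cidea, at 8.40 to 9.85, fell (-0.98, SE 0.14). The fatty acid elongase Elovl3 measured -0.05 and did not pass. It lay near the bottom of the scale, between 4.93 and 5.05, where a fall could hardly be seen. Slc25a14 and Slc25a30, carriers close in sequence to the uncoupling proteins, measured 0.26 (95% confidence interval 0.04 to 0.49) and 0.12 (-0.24 to 0.47), and neither passed the threshold (adjusted p = 0.0721 and 0.608). Slc25a14 did pass without wild type array 1, at 0.36 (adjusted p = 0.0277). It did not pass in the other 14 of its 15 alternative runs, where the limma adjusted p reached 0.235.

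The carnitine-acylcarnitine carrier Slc25a20, the only entry for long-chain acylcarnitines into the matrix, was the next largest fall. Wild type arrays read 12.23, 12.27 and 12.04, and knockout arrays 11.44, 10.82, 10.63 and 11.10. Knockout signal was 44.1% of wild type (log2 fold change -1.18, SE 0.17, limma adjusted p = 0.00118), and the spread of the knockout arrays (SD 0.35, n = 4) was wider than that of wild type (SD 0.12, n = 3). Its second probe set gave -1.22. Of 4 carnitine shuttle enzymes listed, 3 were measured, and those 3 were lower. Cpt1a was the only Cpt1 gene among them, and it was dim (means 7.94 in wild type and 7.28 in knockout) beside Cpt2 (12.36 and 10.97). The step before the carrier was therefore followed only in part. Cpt2, which rebuilds acyl-CoA inside the matrix, changed by -1.39 (SE 0.14), Cpt1a, which makes acylcarnitines at the outer membrane, by -0.66 (SE 0.12), and the carnitine acetyltransferase Crat by -0.64 (SE 0.10).

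Of 6 carriers of adenine nucleotides and phosphate, 2 were lower, 1 was higher and 3 did not pass. The phosphate carrier Slc25a3 supplies phosphate to ATP synthase. It read 14.75, 14.75 and 14.74 in wild type and 14.53, 14.39, 14.46 and 14.40 in knockout, a fall to 81.2% of wild type that was large beside the spread of either group (log2 fold change -0.30, SE 0.05, adjusted p = 0.00322).

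Slc25a4, the ADP/ATP carrier of heart and muscle, depended on the probe set. The brightest of its 4 probe sets read 15.31, 15.34 and 15.28 in wild type and 15.24, 15.18, 15.15 and 15.19 in knockout, near the highest value of any probe set, 15.63. Its change was -0.12 (95% confidence interval -0.24 to -0.00), short of the threshold (adjusted p = 0.111), although the groups did not overlap. In order of falling brightness the other probe sets gave -0.26, -0.58 and -0.76, and each of those 3 was lower with adjusted p between 0.0023 and 0.0117 over all 20380 probe sets. The probe set at -0.58 read 13.48, 13.60 and 13.55 in wild type against 13.21, 12.68, 12.81 and 13.14 in knockout, and the dimmest fell to 59.2% of wild type. Averaging the 4 probe sets gave -0.43, past the threshold (adjusted p = 0.00392).

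Its widely expressed relative Slc25a5 went the other way in sign without passing. Values were 11.77, 12.04 and 11.82 in wild type and 11.94, 11.96, 12.26 and 12.07 in knockout, overlapping groups with a difference of 0.18 (95% confidence interval -0.04 to 0.41, adjusted p = 0.201). All 8 Slc25a5 probe sets lay between -0.18 and 0.18, and none passed. Within each array Slc25a5 minus Slc25a4 was 0.30 greater in knockout, but a two-sided exact permutation test of that unequal change gave p = 0.0857, or 0.0857 adjusted over the 4 pairs of related carriers tested. With the mean of all probe sets of each gene the difference was 0.51, and the exact permutation p 0.0571. For the brightest probe sets whose names do not mark possible cross-hybridisation, it was 0.27 (exact permutation p = 0.171). With 3 arrays against 4 no such test can go below p = 0.0286 by exact permutation.

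**Figure D2:**
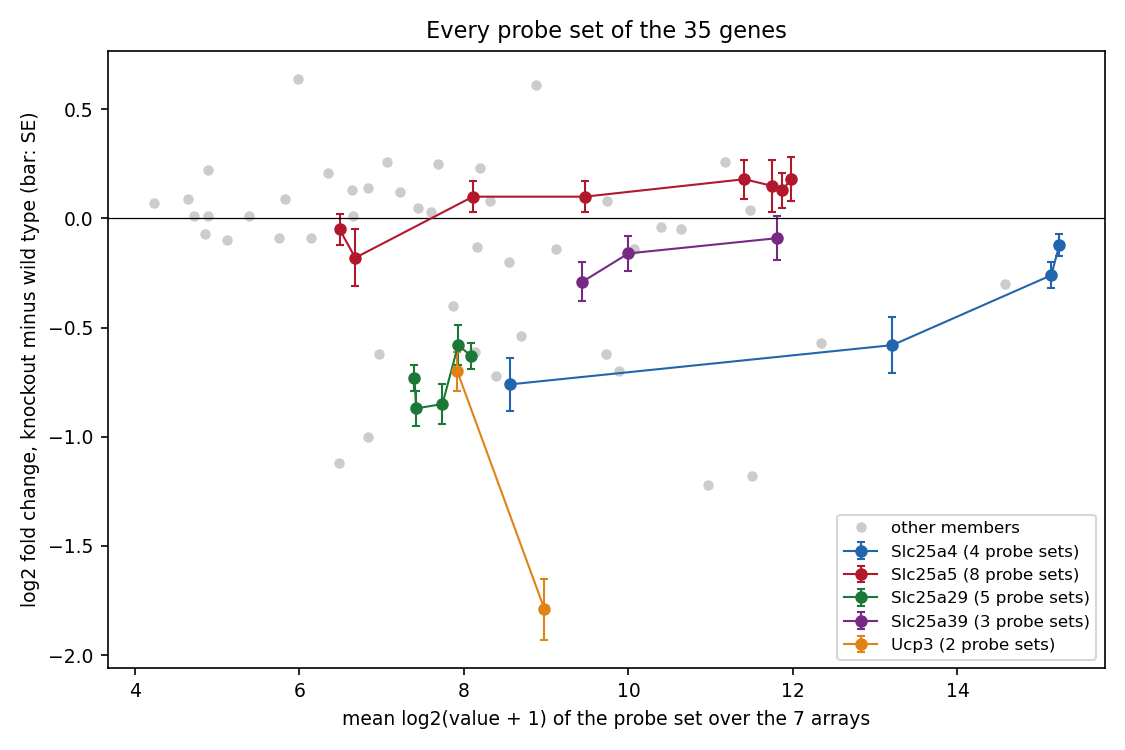
Log2 fold change (knockout minus wild type, y axis, bars SE) against the mean level of every probe set of the 35 genes over the 7 arrays (x axis, log2 units); lines join the probe sets of 1 gene for 5 genes in colour. The Slc25a4 points move from -0.76 at a level of 8.56 to -0.12 at 15.24, while the 8 Slc25a5 points lie on both sides of 0.

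Calcium regulates the exchangers of ATP-magnesium for phosphate, which set the size of the adenine nucleotide pool in the matrix. Slc25a25 was lower, at 8.21, 8.11 and 7.98 in wild type and 7.68, 7.67, 7.88 and 7.57 in knockout (log2 fold change -0.40, SE 0.09, adjusted p = 0.00751). Slc25a24 was higher, at 5.59, 5.32 and 5.93 in wild type and 6.05, 6.61, 6.10 and 6.26 in knockout. This rise, 0.64 (SE 0.17, adjusted p = 0.0193), rested on dim signals. It no longer passed once wild type array 1 was dropped (adjusted p = 0.0633), nor once wild type array 2 was (0.0783).

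The third member of this group, Slc25a23, read 6.11, 6.34 and 6.23 in wild type and 6.40, 6.42, 6.34 and 6.59 in knockout. The difference was 0.21 (95% confidence interval 0.03 to 0.40), with a limma adjusted p of 0.0727. Every knockout array lay above every wild type array, though the nearest values were both 6.34 after rounding. Slc25a25 minus Slc25a23 was 0.62 log2 units less in knockout (-0.62), with an exact permutation p of 0.0571 (0.0857 adjusted over the 4 pairs). Partner genes of the ADP and ATP cycle were lower in 5 of 6 cases. They included Ppif, of the mitochondrial cyclophilin, at -0.84 (SE 0.14), the matrix adenylate kinase Ak4 at -0.79 (SE 0.11), and Ckmt2, the mitochondrial creatine kinase of muscle, at -0.65 (SE 0.12).

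Among carriers of other nucleotides, coenzyme A and cofactors, 4 of 6 fell and none rose. Slc25a17, the peroxisomal carrier of coenzyme A, FAD and NAD, read 8.84, 8.93 and 8.64 in wild type and 8.27, 8.13, 7.88 and 8.05 in knockout (log2 fold change -0.72, SE 0.10, adjusted p = 0.00112). It is the member of the family best known outside mitochondria. A very dim second probe set, at 4.85, gave -0.07 for the same gene. Slc25a42, which brings coenzyme A into the matrix, read 8.42, 8.52 and 8.50 against 7.96, 7.77, 7.83 and 7.89 (-0.61, SE 0.06, adjusted p = 0.000204). Slc25a26, the importer of the methyl donor S-adenosylmethionine, changed by -0.54 (SE 0.11) and by -0.62 in its other probe set. Slc25a51, the NAD carrier, ranged from 10.15 to 10.58 in wild type and from 10.16 to 10.56 in knockout, so the groups covered the same span.

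Of the pyrimidine nucleotide carriers, Slc25a33 passed and Slc25a36 did not. Slc25a33 read 9.96, 10.15 and 10.16 in wild type and 9.42, 9.44, 9.42 and 9.60 in knockout (log2 fold change -0.62, SE 0.07, adjusted p = 0.000401), with no overlap. Slc25a36 read 11.64, 11.29 and 11.43 in wild type and 11.63, 11.51, 11.31 and 11.51 in knockout, fully overlapping at 0.04 (95% confidence interval -0.19 to 0.27). Within arrays the difference Slc25a36 minus Slc25a33 was 0.66 greater in knockout, and every knockout array exceeded every wild type array. Its exact permutation p of 0.0286 was the smallest possible, but adjusted over the 4 pairs it was 0.0857.

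Both dicarboxylate carriers measured passed, in opposite directions. Slc25a11, which exchanges oxoglutarate for malate in the malate-aspartate shuttle, read 12.57, 12.71 and 12.72 in wild type and 12.14, 12.00, 12.23 and 12.00 in knockout. It retained 67.2% of the wild type signal (log2 fold change -0.57, SE 0.08, adjusted p = 0.000683). Slc25a10, which exchanges malate and succinate for phosphate, was higher: 8.65, 8.47 and 8.45 in wild type against 8.93, 9.17, 9.33 and 9.12 in knockout (0.61, SE 0.10, adjusted p = 0.00167). A dimmer Slc25a10 probe set gave 0.14 and did not pass.

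Amino acid carriers were lower in 4 of 7 cases and higher in none. Slc25a13, or citrin, exports aspartate for glutamate in the malate-aspartate shuttle, and its level was 7.11, 6.92 and 7.32 in wild type and 6.08, 5.83, 6.28 and 5.81 in knockout. That was 46.1% of the wild type signal (log2 fold change -1.12, SE 0.13, adjusted p = 0.000435). Slc25a13 was dim, with a mean level of 6.48 below the median gene of 7.66. Its family member Slc25a12 had no entry in the gene table, so this fall describes Slc25a13 alone. Slc25a22, a glutamate importer, read 10.24, 10.18 and 10.42 against 9.63, 9.56, 9.76 and 9.36 (-0.70, SE 0.10, adjusted p = 0.00107).

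Slc25a29, which carries basic amino acids, read 8.45, 8.39 and 8.49 in wild type and 7.85, 7.88, 7.82 and 7.72 in knockout (-0.63, SE 0.06, adjusted p = 0.000155). It was lower in all 5 of its probe sets, from -0.87 to -0.58. Slc25a38, the glycine importer needed for heme synthesis, was lower by a small amount, -0.20 (SE 0.06, adjusted p = 0.0294). Its call was lost when any of 5 arrays was dropped: wild type array 1 gave an adjusted p of 0.0996, wild type array 2 gave 0.0789, and knockout arrays 2, 3 and 4 gave 0.0655, 0.0618 and 0.0608.

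Of the amino acid carriers that did not pass, the ornithine carrier Slc25a15 measured -0.14, its relative Slc25a2 0.22 at the dim level of 4.89, and the branched-chain amino acid carrier Slc25a44 0.23. A dimmer Slc25a44 probe set, tested over all 20380, was higher in every knockout array, at 0.25 (adjusted p = 0.0154), and the dimmest gave -0.10. Of 6 enzymes of the malate-aspartate and glycerol phosphate shuttles, 4 were lower and none higher. The smallest p-values belonged to the cytosolic transaminase Got1 at -0.61 (SE 0.08), the cytosolic glycerol phosphate dehydrogenase Gpd1 at -0.63 (SE 0.10) and the mitochondrial malate dehydrogenase Mdh2 at -0.36 (SE 0.07).

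**Figure D3:**
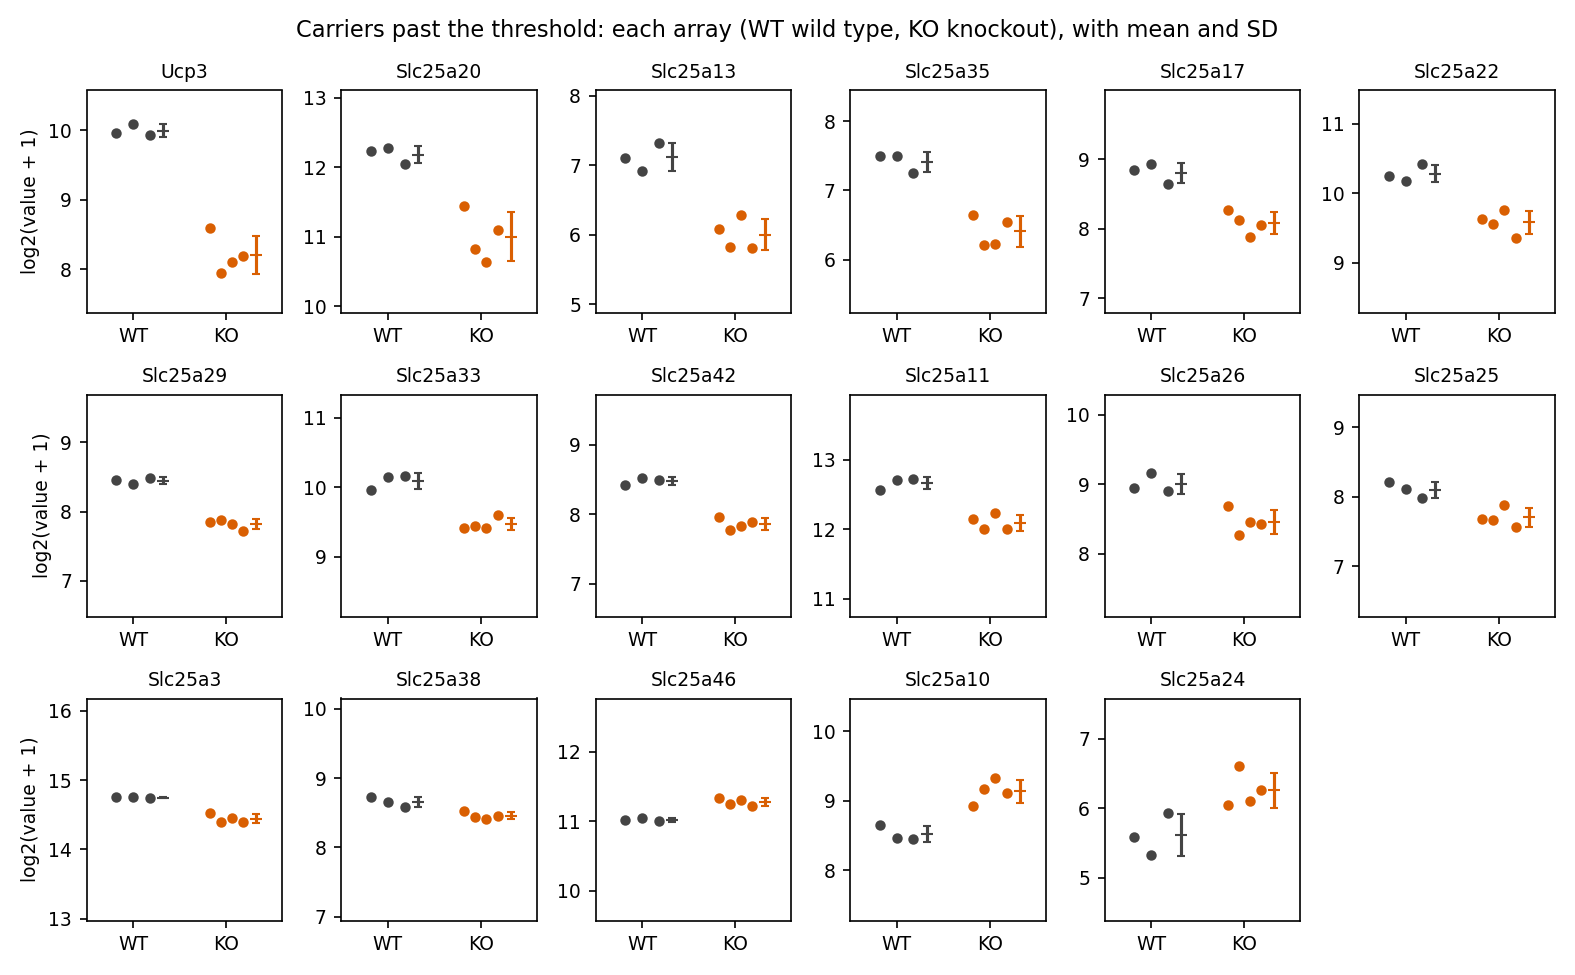
Levels (y axis, log2(value + 1), the same span in each panel) of the 17 carriers past the threshold in the 3 wild type (WT) and 4 knockout (KO) arrays; points are arrays and bars the mean with SD. No panel shows overlap between the groups, and Ucp3, Slc25a20 and Slc25a13 show the largest differences between group means.

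Iron and glutathione carriers gave no call. Mitoferrin 2, encoded by Slc25a28, read 9.70, 9.70 and 9.69 in wild type and 9.86, 9.72, 9.70 and 9.84 in knockout (0.08, 95% confidence interval -0.06 to 0.22). Slc25a37, the mitoferrin of developing red cells, read 8.30, 8.17 and 8.22 against 8.11, 8.22, 7.91 and 8.17 (-0.13, interval -0.31 to 0.06). Within arrays Slc25a37 minus Slc25a28 differed by -0.21 between genotypes, with an exact permutation p of 0.0857, the same after adjustment. Erythroid markers were dim, and 1 of 5 measured, Alas2, was lower.

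Slc25a39, a glutathione importer, read 11.71, 12.02 and 11.86 in wild type and 11.91, 11.56, 11.84 and 11.79 in knockout (-0.09, adjusted p = 0.538). Its probe set whose name does not mark possible cross-hybridisation, the dimmest of 3, gave -0.29 and a call (adjusted p = 0.0436 with such probe sets standing for all genes that had one). That run was not planned, and the groups overlapped in this probe set. The remaining probe set gave -0.16 and did not pass.

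Members with no substrate assigned here held 1 large fall. Slc25a35 read 7.49, 7.49 and 7.25 in wild type and 6.65, 6.22, 6.23 and 6.55 in knockout, 50% of the wild type signal (group means 7.41 and 6.41, 95% confidence interval of the log2 fold change -1.28 to -0.72, adjusted p = 0.000464). Slc25a46, an outer membrane protein linked to mitochondrial shape, was higher, at 11.01, 11.05 and 11.00 in wild type and 11.34, 11.25, 11.30 and 11.22 in knockout (0.26, SE 0.05, adjusted p = 0.00588). A second Slc25a46 probe set measured -0.05, and the mean of both was 0.11 (adjusted p = 0.116), so this rise rests on 1 probe set. Slc25a45, Slc25a47, Slc25a48 and Slc25a53 lay between 0.03 and 0.13, with overlapping groups.

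Channels and carriers outside the family were counted from a separate list. Of 15 mitochondrial channels and other carriers measured, 6 were lower and 1 higher, with a median of -0.19. The pyruvate carrier subunit Mpc1 changed by -0.50 (SE 0.08), the outer membrane porin Vdac3 by -0.34 (SE 0.07) and the cation exchanger gene Letm1 by -0.33 (SE 0.07). Tspo, the outer membrane translocator protein, rose by 0.89 (SE 0.12).

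Markers of other cells also differed between the genotypes. All 10 leukocyte markers rose, with a summed intensity of 3257 to 3880 units in wild type and 7363 to 11467 in knockout. Slc25a10, Slc25a24, Slc25a46 and Tspo were also called higher, as were 17.0% of all genes. Endothelial markers fell in 9 of 10 cases (5384 to 5861 units in wild type, 2807 to 3019 in knockout). Adipocyte markers fell in 4 of 8, with 1 higher, Retn at 1.06, and Adipoq among those that did not pass (15295 to 16560 units in wild type, 8107 to 11225 in knockout). The summed erythroid markers were 337 to 382 units in wild type and 270 to 316 in knockout, and of 6 germ cell markers, dim at 244 to 258 and 231 to 244 units summed, 1 was called. The part of these cells in the carrier changes was not tested.

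**Figure D4:**
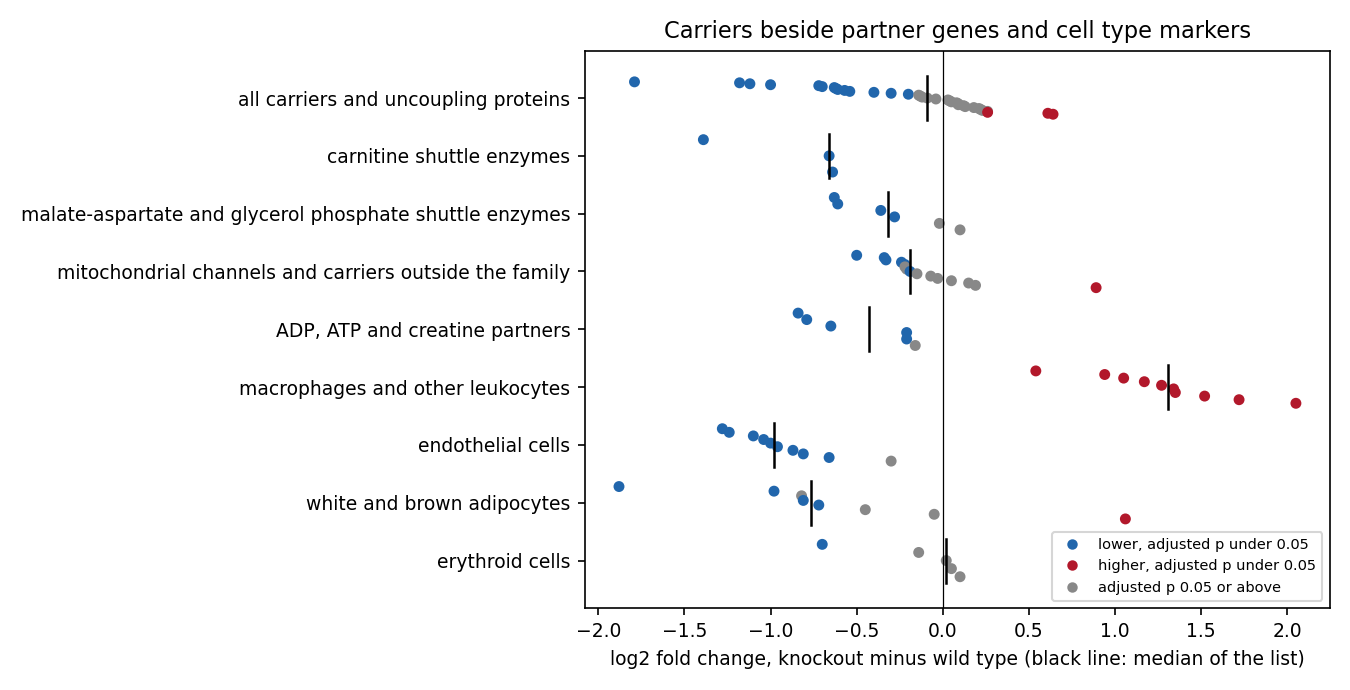
Log2 fold change (knockout minus wild type, x axis) of the 35 carriers and uncoupling proteins, 4 lists of partner genes and 4 lists of cell type markers (rows); each point is a gene and the black line the median of its row. The partner lists lie mostly below 0, with medians from -0.66 to -0.19, the leukocyte markers all above 0 and the endothelial markers all below it.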

How the data were processed

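Soleus RNA from 3 wild type and 4 Yy1 knockout samples was measured on 1-colour arrays. The authors deposited 1 linear intensity for each of 22690 probe sets, summarised with RMA per the submitters' processing notes, which give no version. Values were taken to log2(value + 1). After 64 control probe sets were left out, 20380 had 1 symbol in the platform annotation, and symbols were updated through RefSeq gene identifiers for 12369 of 12393 genes. For each gene the probe set with the highest mean was used, with no filter on dim genes. Precision is limited by the number of arrays, which carry no read depth. The table held 0 columns of other samples, and no 2 arrays shared more than 1819 equal values.

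Knockout was compared with wild type with lmFit and eBayes from limma 3.58.1 (R 4.3.3). The two-sided p-values were adjusted by Benjamini-Hochberg across the 12393 genes, at a threshold of 0.05, and the fit was tested on simulated data. SE is the fit's standard error and SD the spread of a group. Paralogue pairs were compared by exact permutation over the 35 divisions of the arrays, on the absolute difference of group means. Every member is accounted for. Values in every sample were given for Yy1, the uncoupling proteins, the paralogue pairs and the 10 largest called changes in each direction; of partner lists, at most 3 called genes in each direction with the smallest p. Values by array for Slc25a3 and Slc25a39, the probe sets singled out, and the named fibre, adipocyte and erythroid markers were chosen after their values were seen. The members, lists and motifs were chosen with earlier results of these data known. Alternatives covered pseudocount, scaling, dim genes, probe set choice, variance model, array weights, pairing and single arrays.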

Additional observations from a re-analysis of the deposited data

Results flagged for a closer look

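Each group of 4 knockout arrays was checked for 1 array far from the other three, for the 35 members, Yy1 and the 4 pairs, 40 groups in all. Chance gives such a result in about 1 of 20 groups, and 2 were found. For Slc25a33, knockout array 4 was the highest at 9.60, with 0.887 of the group's range between it and its nearest neighbour, while still below every wild type array. For Ucp1, knockout array 2 read 4.84 and the other three shared 1 value, so the ratio was 1.000. That gene lay at the bottom of the scale.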

How the results depend on the processing

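The number of lower carriers was 13 to 15 of 35 over the alternatives run on all genes, and 13 to 14 when single arrays were left out. With dim genes left out it was 12 of 23. The alternative using probe sets whose names do not mark possible cross-hybridisation was not planned. A test of every probe set by itself was likewise chosen after seeing the data. There, 25 of 68 member probe sets were lower and 4 higher, beside 3023 and 2975 of all 20380. The number of higher carriers was 2 or 3. Calls over all genes ranged from 3171 to 4195 of 12393 genes, and 3228 of 6196 with dim genes left out. Of the 17 called members, 14 kept their call and direction under every alternative run; Slc25a24, Slc25a38 and Slc25a46 did not. Of the 18 others, Slc25a4, Slc25a14 and Slc25a39 gained a call under some alternative, Slc25a4 also with an intensity trend in the variance (adjusted p = 0.0498). No called member changed sign. Arrays with the same replicate number did not deviate together more than others. Their correlations were 0.029, -0.126 and 0.017, beside -0.147 to 0.141 between arrays of unlike number. No pairing was seen, but such weak correlations cannot exclude a shared batch. With the replicate block over 6 arrays, 13 carriers were lower, 2 higher and 3224 genes called; Slc25a24 (adjusted p = 0.0695) and Slc25a38 (0.0916) were no longer called. Leaving out single arrays, the pair differences ranged from 0.22 to 0.37 (Slc25a5 minus Slc25a4), -0.26 to -0.17 (Slc25a37 minus Slc25a28), -0.71 to -0.51 (Slc25a25 minus Slc25a23) and 0.55 to 0.82 (Slc25a36 minus Slc25a33). The cause of lost or gained calls was not tested. Signals near the top and bottom of the scale limit fold changes, and no detection call was used.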
